A study of Homo sapiens with 12 samples.

Results

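The 7 enzymes of the pentose phosphate pathway examined here, PGLS, PGD, H6PD, RPIA, RPE, TKT and TALDO1, were followed as mRNA across parental and oxamate-resistant MIAPaCa2 cells. They were taken by symbol for their place in the pathway, though the list was chosen with earlier results of these data known. All 7 were among the 26475 gene symbols of the count table and among the 14582 that passed the filter on low counts. MIAPaCa2 is an established pancreatic ductal adenocarcinoma (PDAC) cell line, and oxamate competes with pyruvate at lactate dehydrogenase A (LDHA). RNA-seq was performed on 12 libraries in 4 groups of 3, to ask how cells that outlast LDHA inhibition differ from the cells they came from. The groups were untreated parental cells, parental cells given the LDHA inhibitor, untreated resistant cells and resistant cells given the LDHA inhibitor. The untreated groups are called vehicle-treated below, as in the study's text, and the inhibitor was sodium oxamate. The resistant cells came from a single parental line kept in oxamate for several weeks and share that history in both of their groups. The labels give no length of the final treatment, and they do not say whether replicates came from separate cultures, so a p-value measures only the spread between these libraries.

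The pathway branches off glycolysis at glucose 6-phosphate. Its oxidative branch yields NADPH, which cells spend on lipid synthesis and on keeping glutathione reduced, and ribulose 5-phosphate. Its non-oxidative branch turns pentose phosphates into ribose 5-phosphate for nucleotides, or returns carbon to glycolysis as fructose 6-phosphate and glyceraldehyde 3-phosphate. PGLS opens the lactone ring of the oxidative branch, and PGD oxidises 6-phosphogluconate to ribulose 5-phosphate. H6PD carries out oxidative steps inside the endoplasmic reticulum, apart from the cytosolic enzymes. In the non-oxidative branch RPIA makes ribose 5-phosphate, RPE makes xylulose 5-phosphate, and TKT and TALDO1 move carbon units between sugar phosphates.

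In the GENCODE 29 annotation of GRCh38, PGD is on chromosome 1 from 10398592 to 10420144 on the plus strand, with 13 exons in its longest coding transcript. H6PD is on the same chromosome from 9234775 to 9271337, plus strand, with 5 exons. RPIA lies on chromosome 2 from 88691644 to 88750935, plus strand, with 9 exons. RPE also lies on chromosome 2, from 210002565 to 210022259, plus strand, with 5 exons. TKT is on chromosome 3 from 53224707 to 53256052 on the minus strand, with 14 exons. TALDO1 is on chromosome 11 from 747329 to 765024, plus strand, with 8 exons. PGLS is on chromosome 19 from 17511629 to 17521288, plus strand, with 5 exons. The 7 genes thus sit on 5 chromosomes, and the values below count reads from whole transcripts.

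The promoters of PGD and RPIA, the genes with the lowest levels in resistant relative to parental cells, are shown beside that of H6PD, which did not pass the test between the lines. Each is the stretch of 250 bases before the RefSeq start on GRCh38.p14, read 5′ to 3′ on the gene's strand, with matches to the searched motifs in capitals. The PGD window is chr1:10398814-10399063, the RPIA window chr2:88691423-88691672 and the H6PD window chr1:9239597-9239846, all on the plus strand. The PGD and H6PD windows begin inside the span that GENCODE gives these genes, so they precede 1 annotated start and not the outermost one.
PGD: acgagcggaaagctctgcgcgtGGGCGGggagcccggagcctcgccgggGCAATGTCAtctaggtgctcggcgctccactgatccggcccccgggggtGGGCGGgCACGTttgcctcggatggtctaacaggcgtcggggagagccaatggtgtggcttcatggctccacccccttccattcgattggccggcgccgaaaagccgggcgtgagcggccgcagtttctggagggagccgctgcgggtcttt
RPIA: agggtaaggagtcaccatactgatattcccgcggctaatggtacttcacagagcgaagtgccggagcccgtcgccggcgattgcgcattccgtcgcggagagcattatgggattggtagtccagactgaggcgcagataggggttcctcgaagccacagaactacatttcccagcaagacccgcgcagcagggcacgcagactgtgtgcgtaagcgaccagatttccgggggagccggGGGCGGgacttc
H6PD: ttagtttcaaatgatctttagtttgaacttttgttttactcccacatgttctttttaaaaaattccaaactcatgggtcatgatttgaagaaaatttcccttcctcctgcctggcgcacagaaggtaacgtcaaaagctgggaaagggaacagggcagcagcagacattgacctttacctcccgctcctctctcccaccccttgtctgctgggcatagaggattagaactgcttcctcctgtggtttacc
In the PGD window the capitals are, from the left, a GC box (GGGCGG) 228 bases before the start, an antioxidant response element core read on the other strand (GCAATGTCA) at 201 bases, a second GC box at 152 bases and a hypoxia response element core read on the other strand (CACGT) at 145 bases. In the RPIA window they are 1 GC box 12 bases before the start, and in the H6PD window none of the searched letters occurred. The motifs were TGACNNNGC for the antioxidant response element core, ACGTG for the hypoxia response element core, CACGTG for the E-box (each E-box also holds the hypoxia core), TGATGNAAT for the ATF4 composite element and GGGCGG for the GC box, on both strands. Of all 27305 RefSeq promoters of this length, 11.0% held the antioxidant core, 18.7% the hypoxia core, 6.49% the E-box, 0.916% the ATF4 element and 42.3% the GC box. Among the 7 enzymes the antioxidant core was found in PGD and RPE, the hypoxia core in PGD alone, the GC box in PGD, RPIA, RPE, TKT and TALDO1, and neither of the other motifs in any. The GC content of the H6PD window was 44.8%, against 68.4% for PGD, 60.0% for RPIA and a median of 58.0% over all promoters.

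The libraries held 46698729 to 114222169 expected counts each, and every parental library was deeper than every resistant one. Epithelial keratins KRT8, KRT18 and KRT19 ranged from 316 to 1601 CPM (counts scaled to a common library size). EPCAM and CDH1, also epithelial, had at most 3 counts in any library. Of the mesenchymal markers, VIM was at 5917 to 10110 CPM and ZEB1 at 55.5 to 90.4 CPM, whereas CDH2 had at most 2 counts. Defining markers of acinar and endocrine pancreas had at most 2 counts, and the leukocyte marker PTPRC at most 3. Of the other markers fixed for blood, endothelium and fibroblasts, CD68 was at 56.4 to 220.2 CPM, CDH5 and COL1A1 reached 57 and 137 counts, PECAM1 reached 11, and DCN and LUM at most 2. CDKN2A and CDKN2B, which are deleted in this line, had 0 counts throughout. The nuclear-retained transcripts MALAT1, NEAT1, KCNQ1OT1 and MIAT, which stay mostly in the nucleus, had a joint level of 321 to 357 CPM in parental libraries after vehicle and of 1080 to 1407 CPM in oxamate-treated resistant libraries. Within the other groups they were at 557, 544 and 1187 CPM in oxamate-treated parental cells and at 583, 534 and 1112 CPM in vehicle-treated resistant cells, so the third library of each stood apart. Their part in the results below was not tested, and the results are given without these 2 libraries where the calls differ.

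Levels are given as CPM on library sizes scaled by TMM, the trimmed mean method of edgeR. The orders of groups described below hold on this scaling, and some of them change on library size alone. The 7 mRNAs summed to 1412 ± 25.7 CPM (SD, n = 3) in vehicle-treated and 1460 ± 35.5 in oxamate-treated parental cells. In resistant cells the sum was 1179 ± 27.4 after vehicle and 1110 ± 12.0 after oxamate. They made up between 0.122% and 0.134% of all counts of a library. Per kilobase of the longest coding transcript, TKT was the most abundant in vehicle-treated parental cells, at 207.7 ± 4.81 CPM per kilobase (SD, n = 3), followed by TALDO1 at 179.8 ± 4.44 and PGD at 127.2 ± 2.16. PGLS came next at 58.6 ± 2.52 CPM per kilobase, then RPIA at 29.7 ± 0.398, RPE at 25.2 ± 0.502 and H6PD at 12.1 ± 0.108. On these lengths TKT, TALDO1, PGD and PGLS kept their ranks in all 4 groups, with no overlap between neighbours. RPIA and RPE exchanged ranks in the other 3 groups, and in vehicle-treated resistant cells they did not differ beyond their spread, at 20.5 ± 0.620 and 20.7 ± 0.632 CPM per kilobase. The place of RPE rests on the transcript length, since its 11 coding transcripts run from 668 to 3165 bases and with the shortest transcripts it would rank above PGLS in all 4 groups and above PGD in 3 of them.

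The oxidative branch is described first. PGLS was at 63.3, 58.7 and 58.9 CPM in vehicle-treated parental cells and at 75.1, 69.8 and 68.6 CPM in oxamate-treated parental cells. In resistant cells PGLS was at 54.4, 57.0 and 54.4 CPM after vehicle and at 53.5, 54.1 and 53.7 CPM after oxamate. Under TMM the oxamate-treated parental libraries were thus the 3 highest, and the resistant libraries lay below all parental ones. On library size alone the log2 fold change of PGLS between the lines after vehicle was 0.09, so that order rests on the scaling. PGD, the last enzyme of the branch and a source of NADPH, was at 244.4, 237.7 and 237.0 CPM in vehicle-treated and at 238.9, 236.5 and 228.7 CPM in oxamate-treated parental cells. In resistant cells PGD was at 164.0, 161.3 and 159.3 CPM after vehicle and at 153.6, 153.1 and 152.2 CPM after oxamate. The lowest parental library was therefore well above the highest resistant one, whereas the parental groups overlapped. H6PD, the enzyme of the endoplasmic reticulum, was at 110.1, 109.7 and 111.5 CPM in vehicle-treated and at 113.5, 122.1 and 122.8 CPM in oxamate-treated parental cells. In resistant cells H6PD was at 114.5, 117.3 and 109.0 CPM after vehicle and at 110.0, 116.1 and 115.7 CPM after oxamate. Its resistant libraries overlapped the parental ones under either treatment.

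In the non-oxidative branch RPIA, the isomerase that makes ribose 5-phosphate, was at 55.4, 55.0 and 54.0 CPM in vehicle-treated and at 48.7, 48.2 and 47.0 CPM in oxamate-treated parental cells. In resistant cells RPIA was at 39.0, 38.1 and 36.7 CPM after vehicle and at 31.0, 31.4 and 31.7 CPM after oxamate. Under TMM the 4 groups did not overlap and formed a ladder, with vehicle-treated parental cells at the top and oxamate-treated resistant cells at the bottom. The step between the middle groups rests on TMM. Without it, 2531 of 59811522 counts in an oxamate-treated parental library and 2233 of 52774422 in a vehicle-treated resistant one are nearly the same share. How many of all genes formed such a ladder was not counted. RPE, the epimerase that works on the same substrate, was at 77.9, 80.5 and 80.8 CPM in vehicle-treated and at 85.9, 87.5 and 84.1 CPM in oxamate-treated parental cells. In resistant cells RPE was at 67.8, 63.9 and 65.2 CPM after vehicle and at 63.3, 61.0 and 62.4 CPM after oxamate. Under TMM its order under treatment was opposite in the lines: oxamate libraries were higher than vehicle libraries in parental cells and lower in resistant cells. All 12 of its values were not whole numbers, as RSEM gives where reads match more than 1 gene, so part of its count is uncertain. Its near copy RPEL1 had at most 10.7 expected counts in a library.

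TKT, the transketolase of the branch, was at 641.9, 615.3 and 618.6 CPM in vehicle-treated and at 694.5, 675.8 and 650.5 CPM in oxamate-treated parental cells. In resistant cells TKT was at 551.5, 562.9 and 532.3 CPM after vehicle and at 496.5, 514.7 and 499.4 CPM after oxamate. As for RPE, oxamate libraries lay above vehicle libraries in the parental line and below them in the resistant line under TMM. Its relatives TKTL1 and TKTL2 had at most 2 counts in any library. TALDO1, the transaldolase, was at 248.8, 237.4 and 239.9 CPM in vehicle-treated and at 233.0, 230.2 and 219.2 CPM in oxamate-treated parental cells. In resistant cells TALDO1 was at 196.9, 200.6 and 191.7 CPM after vehicle and at 192.4, 192.8 and 190.4 CPM after oxamate. Under TMM every resistant library was below every parental one, and the resistant groups overlapped. On library size alone the log2 fold change of TALDO1 between the lines under oxamate was 0.08. In bulk RNA, fewer cells with an mRNA and less of it per cell cannot be told apart.

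**Figure D1:**
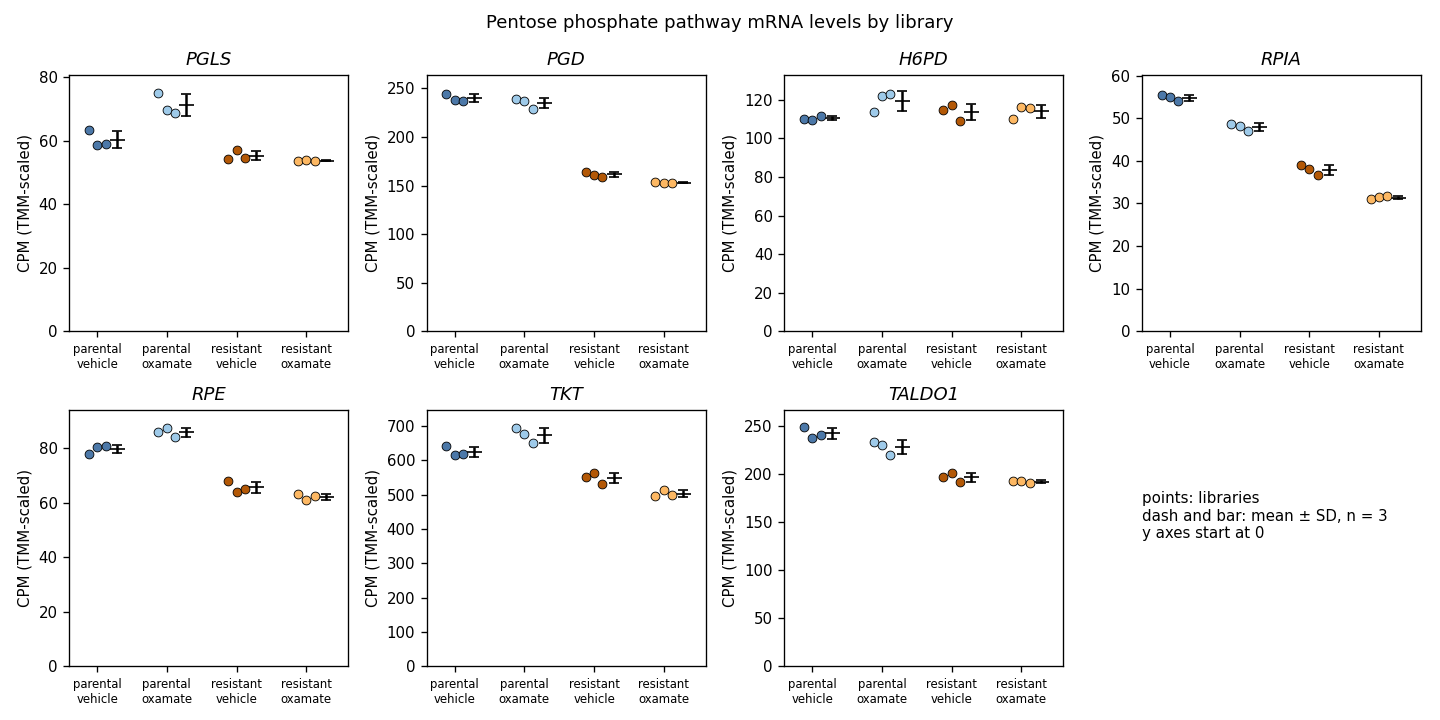
Level of each of the 7 mRNAs (y axis, CPM on TMM-scaled library sizes, starting at 0) in each library of the 4 groups (x axis), with points for libraries and dash and bar for the mean ± SD of 3 libraries. PGD goes from 244.4 at most in parental cells to between 152.2 and 164.0 in resistant cells, RPIA descends over all 4 groups, and H6PD stays between 109.0 and 122.8.

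The question of how parental cells respond to the drug was addressed by comparing oxamate with vehicle in these cells. PGLS rose most, by 0.24 on the log2 scale (adjusted p = 4.7e-05, standard error 0.037), and RPIA fell most, by 0.19 (adjusted p = 2.6e-05, standard error 0.028). H6PD, RPE and TKT each rose by 0.11 on the log2 scale, with adjusted p-values of 0.0093, 0.0044 and 0.0054, and TALDO1 fell by 0.09 (adjusted p = 0.013). PGD had a log2 fold change of -0.03, with a 95% interval from -0.08 to 0.02 (adjusted p = 0.29). All p-values here and below are from edgeR's quasi-likelihood test, adjusted over all genes by Benjamini-Hochberg and called under 0.05. In all, 6 of 7 enzymes were called, 4 higher and 2 lower, where 58.7% of all genes were called in either direction. Called higher were 28.3% of all genes and called lower 30.4%. The study's own criterion asks for a fold over 1.5 with an unadjusted p under 0.05. None of the 7 met it in edgeR, as 9.88% of all genes did. The groups did not overlap for 6 of 7, against 61.5% of all genes, and the median log2 fold change of the 7 was 0.11, against 0.00 for all genes. With library size alone, not TMM, 1 enzyme was called higher and 3 lower: H6PD, RPE and TKT lost theirs at 0.04, 0.03 and 0.03, and PGD gained one at -0.11. The call for TALDO1 was lost without the third oxamate-treated library, the one high in nuclear-retained RNA (adjusted p = 0.064), and without the first vehicle-treated one (adjusted p = 0.056).

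The same comparison in resistant cells gave decreases wherever the test was passed. RPIA fell by 0.27 on the log2 scale (standard error 0.031, 95% interval -0.34 to -0.21, adjusted p = 2.9e-05) and ranked 109 among the 14582 genes by p. TKT fell by 0.12 (standard error 0.030, adjusted p = 0.0084) and PGD by 0.08 (standard error 0.025, adjusted p = 0.035). RPE had a log2 fold change of -0.08 (adjusted p = 0.075), PGLS of -0.04 with an interval from -0.12 to 0.04 (adjusted p = 0.48), TALDO1 of -0.03 with an interval from -0.09 to 0.03 (adjusted p = 0.43) and H6PD of 0.00 with an interval from -0.07 to 0.08 (adjusted p = 0.94). Thus 3 of 7 were called, all lower, where 21.5% of all genes were called and 12.5% were called lower. None met the study's criterion in edgeR, as 2.50% of all genes did. The groups did not overlap for 5 of 7, against 41.0% of all genes. The call for PGD was lost when any library other than the third vehicle-treated one was left out (5 of 6 fits), on upper-quartile factors (adjusted p = 0.11) and on library size alone (adjusted p = 0.10). Without the third vehicle-treated library, which was high in nuclear-retained RNA, the log2 fold changes of RPIA, TKT and PGD were -0.30, -0.15 and -0.09, and all 3 stayed called.

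To ask whether the lines differed in these mRNAs without the drug, vehicle-treated resistant cells were compared with vehicle-treated parental cells. The libraries are replicates of a single resistant and a single parental line. Resistance therefore cannot be told apart from other differences that arose during the weeks of culture in oxamate. PGD was lower by the widest margin, at -0.57 on the log2 scale (standard error 0.024, adjusted p = 7.3e-12) or -32.6%, and RPIA followed with -0.53 (standard error 0.029, adjusted p = 1.3e-10) or -30.8%. TALDO1 and RPE had log2 fold changes of -0.30 (adjusted p = 8.7e-08) and -0.28 (adjusted p = 2.4e-07). TKT, at -0.19 (adjusted p = 2.8e-05), and PGLS, at -0.13 (adjusted p = 0.0062), were lower under TMM but not on library size alone, where they were at 0.03 (adjusted p = 0.22) and 0.09 (adjusted p = 0.020). On that scaling PGD, RPIA and TALDO1 stayed called, at -0.35, -0.31 and -0.08, and RPE lost its call at -0.06 (adjusted p = 0.066). H6PD had a log2 fold change of 0.04, with an interval from -0.03 to 0.11 (adjusted p = 0.28). With TMM, 6 of 7 enzymes were called, all lower, where 75.7% of all genes were called and 37.3% were called lower. The groups did not overlap for 6 of 7, against 77.6% of all genes. None met the study's criterion in edgeR, as 23.4% of all genes did. The median of the 7 was -0.28 and that of all genes 0.03.

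The TMM factors ran from 0.878 to 0.937 in parental and from 1.08 to 1.12 in resistant libraries, so values between the lines depend on the scaling. Library size alone shifted all genes, at their median, by 0.22 on the log2 scale between the lines after vehicle and by 0.32 under oxamate, and it called 2 enzymes higher and 3 lower after vehicle. Upper-quartile factors called 1 higher and 5 lower, with H6PD at 0.12 (adjusted p = 0.0052) and PGLS at -0.05 (adjusted p = 0.21). Relative to the median of all genes, the values after vehicle were nearly the same under each scaling. PGD was at -0.59, RPIA at -0.56, TALDO1 at -0.33, RPE at -0.31, TKT at -0.21, PGLS at -0.15 and H6PD at 0.02. These values take the median gene as the reference, and whether it was itself unchanged between the lines was not tested.

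**Figure D2:**
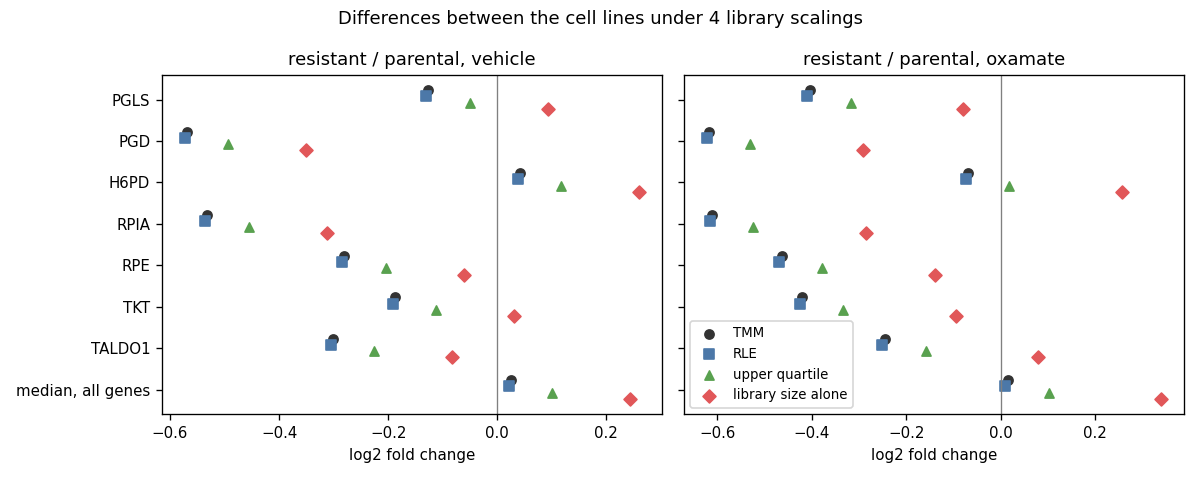
Log2 fold change between the cell lines (x axis) for each enzyme and for the median of all genes tested (y axis), after vehicle on the left and under oxamate on the right, with a symbol for each of 4 library scalings. PGD and RPIA stay below 0 under each scaling in both panels, whereas PGLS and TKT after vehicle and TALDO1 and H6PD under oxamate lie to the right of 0 on library size alone, H6PD also on upper-quartile factors.

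Under oxamate, PGD and RPIA again stood lowest in resistant relative to parental cells. PGD was at -0.62 on the log2 scale (standard error 0.025, adjusted p = 1.4e-12), or -34.8%, and RPIA at -0.61 (standard error 0.030, adjusted p = 2e-11), or -34.5%. RPE was at -0.46 (adjusted p = 3.8e-10), TKT at -0.42 (adjusted p = 1.5e-09), PGLS at -0.40 (adjusted p = 5.7e-08) and TALDO1 at -0.25 (adjusted p = 7.6e-07). H6PD was at -0.07, with an interval from -0.14 to 0.01 (adjusted p = 0.080), and it was called lower only without the first oxamate-treated parental library (adjusted p = 0.011). The 6 calls, all lower, compare with 80.3% of all genes called and 39.7% called lower. PGD and RPIA met the study's criterion, as lower, where 34.3% of all genes met it and 11.4% met it as lower. The groups did not overlap for 6 of 7, against 81.2% of all genes, and the median of the 7 was -0.42 against 0.01 for all genes. On library size alone PGD, RPIA, RPE, TKT and PGLS were still called lower, at -0.29, -0.29, -0.14, -0.09 and -0.08, whereas TALDO1 turned to 0.08 (adjusted p = 0.0036) and H6PD to 0.26 (adjusted p = 1e-05). This comparison and the one after vehicle share no libraries, but each shares a group with the comparisons of oxamate with vehicle.

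Whether the lines responded differently to oxamate was tested as the difference between their log2 fold changes. PGLS had a lower response in resistant than in parental cells, with a difference of -0.28 (standard error 0.053, adjusted p = 0.00055), as did TKT with -0.23 (standard error 0.042, adjusted p = 0.00032) and RPE with -0.18 (standard error 0.041, adjusted p = 0.0018). For TKT the sign of the change differed between the lines, and under TMM each change passed its own test. The remaining enzymes were not called: H6PD was at -0.11 (adjusted p = 0.080, though called without the first oxamate-treated parental library or the third vehicle-treated resistant one), RPIA at -0.08 with an interval from -0.17 to 0.01 (adjusted p = 0.14), PGD at -0.05 (adjusted p = 0.29) and TALDO1 at 0.06 (adjusted p = 0.28). The 3 calls of 7, all lower, compare with 44.2% of all genes called and 21.4% called lower. None met the study's criterion in edgeR, as 8.48% of all genes did. On library size alone PGLS and TKT kept their calls at -0.17 and -0.13, RPE lost its call at -0.08 (adjusted p = 0.14), and TALDO1 was called at 0.16. The decrease of RPIA was thus measured in both lines, and a difference in its size was not called.

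**Figure D3:**
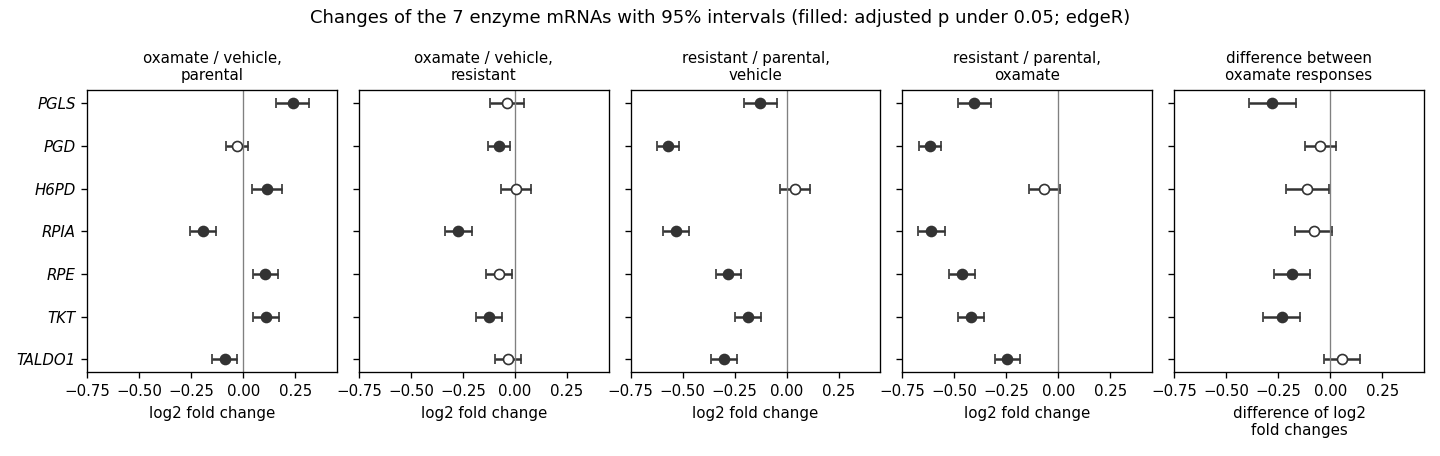
Log2 fold change of each enzyme (x axis; difference of log2 fold changes in the last panel) with its 95% interval, in 5 panels for the 5 comparisons under TMM, filled where the adjusted p was under 0.05. PGD and RPIA lie near -0.6 between the lines, where library size alone gave values near -0.3, and PGLS, RPE and TKT lie to the right of 0 for oxamate in parental cells but not in resistant cells.

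Ratios of counts within a library do not depend on the scaling and show how the enzymes moved against each other, as a description. The ratio of PGD to PGLS, consecutive steps of the oxidative branch, was 3.98 ± 0.102 (SD, n = 3) in vehicle-treated and 3.30 ± 0.107 in oxamate-treated parental cells, and 2.92 ± 0.0926 and 2.85 ± 0.0222 in resistant cells. It was highest in untreated parental cells, and its resistant groups overlapped. RPIA to RPE, which compete for ribulose 5-phosphate, was 0.688 ± 0.0220 and 0.559 ± 0.00841 in parental cells and 0.578 ± 0.0170 and 0.505 ± 0.0132 in resistant cells, in the same order. Oxamate-treated groups were thus lower than vehicle-treated groups in both lines, with no overlap. TKT to TALDO1 was 2.58 ± 0.00726 and 2.96 ± 0.0234 in parental cells and 2.79 ± 0.0150 and 2.62 ± 0.0442 in resistant cells, so the order under oxamate was opposite in the lines. H6PD to PGD was 0.461 ± 0.0102 and 0.509 ± 0.0315 in parental cells against 0.703 ± 0.0218 and 0.745 ± 0.0251 in resistant cells, the widest proportional gap between the lines among these ratios. RPIA to PGD, the pair lowest in resistant cells, was 0.229 ± 0.00226 and 0.235 ± 0.00387 after vehicle in parental and resistant cells, and 0.204 ± 0.000875 and 0.205 ± 0.00339 after oxamate. This ratio therefore separated the treatments, and the lines overlapped under either treatment.

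**Figure D4:**
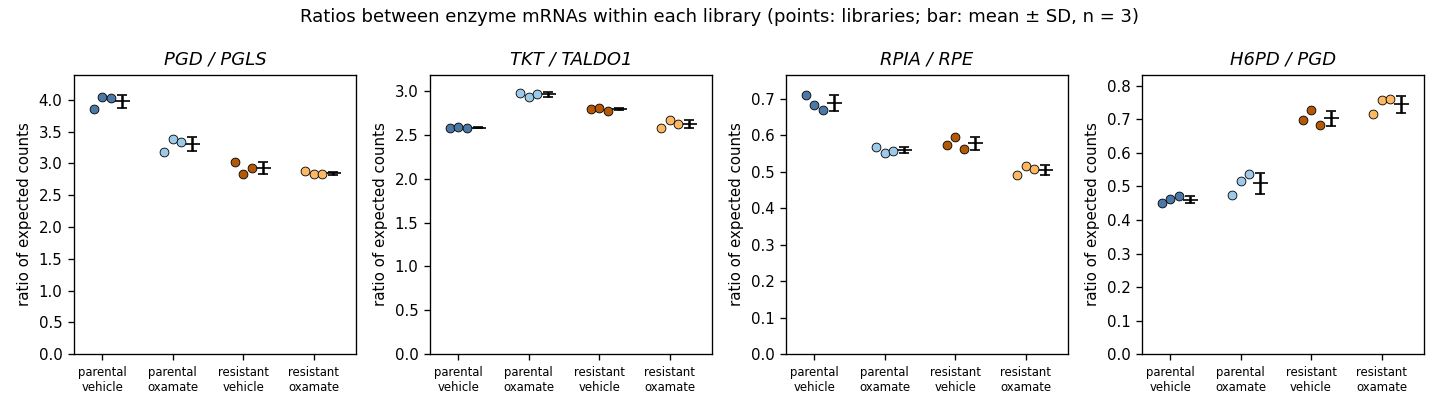
Ratio of expected counts within each library (y axis, starting at 0) for 4 pairs of enzymes in the 4 groups (x axis), with points for libraries and dash and bar for the mean ± SD of 3 libraries. PGD to PGLS and RPIA to RPE are highest in vehicle-treated parental cells, TKT to TALDO1 peaks in oxamate-treated parental cells at 2.96, and H6PD to PGD is above 0.68 in resistant cells only.

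Across the 12 libraries, PGLS, PGD, RPIA, RPE, TKT and TALDO1 had pairwise Pearson correlations of log2 CPM between 0.67, for PGLS with RPIA, and 0.97, for PGD with TALDO1. H6PD stood apart, with correlations from -0.05 to 0.42. These describe 12 points that share 4 groups and the depth gap between the lines. Among 9616 genes whose level averaged 8 CPM or more, the gene most like PGD was STIP1, at r = 0.999, most like RPIA was IGF2BP2, at 0.997, and most like TKT was ATRAID, at 0.996, followed by GPX1 at 0.994. ILF2 was most like TALDO1, at 0.995, ATG14 most like RPE, at 0.993, and CHPF most like PGLS, at 0.990. For H6PD the highest was LOC100129034, at 0.873, and then MCOLN1, at 0.866.

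Genes that feed or draw on the pathway were counted as a list of 13, of which RGN and PRPS1L1 did not pass the filter. Of the 11 tested, 3 were called higher and 4 lower in parental cells after oxamate, 1 higher and 1 lower in resistant cells, 4 higher and 7 lower in resistant against parental cells after vehicle, and 3 higher and 6 lower under oxamate. Over all genes 58.7%, 21.5%, 75.7% and 80.3% were called in these comparisons. On library size alone the counts between the lines became 4 higher and 5 lower after vehicle and 6 higher and 4 lower under oxamate. The median log2 fold change of the 11 was then -0.01 and 0.15, against 0.24 and 0.34 for all genes. TIGAR, a phosphatase known for directing glucose carbon into the pathway, was at 11.1, 11.0 and 11.9 CPM in vehicle-treated and 4.74, 5.25 and 4.90 CPM in oxamate-treated parental cells. In resistant cells TIGAR was at 13.0, 13.0 and 13.9 CPM after vehicle and 13.1, 11.2 and 11.9 CPM after oxamate. It fell in parental cells by 1.19 on the log2 scale (adjusted p = 6.7e-10) and was at -0.14 in resistant cells (adjusted p = 0.11), a difference of 1.05 (adjusted p = 2.2e-07). The low group was oxamate-treated parental cells, the group in which PGLS, TKT and RPE were highest.

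GPI, which links glucose 6-phosphate to fructose 6-phosphate, was at 1411, 1379 and 1349 CPM in vehicle-treated and 2540, 2504 and 2471 CPM in oxamate-treated parental cells. In resistant cells GPI was at 1013, 1025 and 1018 CPM after vehicle and 1261, 1228 and 1277 CPM after oxamate. It rose in both lines, by a log2 fold change of 0.86 in parental cells (adjusted p = 1.4e-12) and 0.30 in resistant cells (adjusted p = 5e-07), and the difference of -0.56 was called (adjusted p = 7.7e-09). PRPS1, which turns ribose 5-phosphate into the activated sugar of nucleotide synthesis, was called lower in the same comparisons as RPIA: its log2 fold change was -0.21 in parental cells after oxamate (adjusted p = 3.2e-05), -0.11 in resistant cells (adjusted p = 0.023, and 0.054 on upper-quartile factors, where it was not called) and -0.48 between the lines after vehicle (adjusted p = 1.2e-09). SHPK, a kinase that supplies sedoheptulose 7-phosphate, was at -0.59 after vehicle and -0.63 under oxamate between the lines (adjusted p = 2.8e-10 and 6.6e-11), and on library size alone at -0.37 and -0.31. PGM2, which interconverts ribose phosphates, was at -0.38 and -0.55 (adjusted p = 2.3e-07 and 1.8e-09), and PRPSAP1, a partner of PRPP synthetase, at 0.20 and 0.30 (adjusted p = 2.2e-05 and 3e-07).

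**Figure D5:**
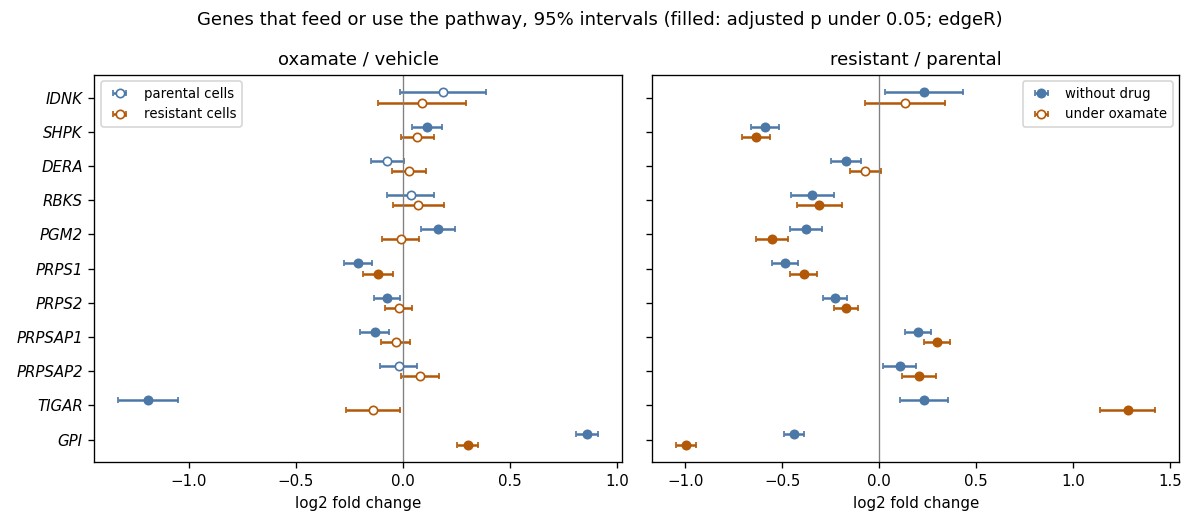
Log2 fold change with its 95% interval (x axis) of 11 genes that feed or use the pathway (y axis), for oxamate against vehicle in each line on the left and for resistant against parental cells on the right, under TMM, filled where the adjusted p was under 0.05. TIGAR lies at -1.19 in parental cells after oxamate and at 1.28 between the lines under oxamate, and GPI lies on the opposite side of 0 from it in these comparisons.

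Other enzymes that make NADPH gave a setting for PGD. Of 10 tested, 1 was called higher and 8 lower in resistant against parental cells after vehicle. Under oxamate 7 were called, all lower, beside 75.7% and 80.3% of all genes in these comparisons. On library size alone 3 were called higher and 4 lower in each. The median log2 fold change of the 10 was then -0.03 after vehicle and -0.07 under oxamate, against 0.24 and 0.34 for all genes. IDH2, the mitochondrial NADP-dependent isocitrate dehydrogenase, was at -0.64 after vehicle (adjusted p = 5.5e-11) and -0.85 under oxamate (adjusted p = 1.1e-12), and NNT, the mitochondrial transhydrogenase, at -0.67 and -0.79 (adjusted p = 6.8e-08 and 9.1e-09). IDH1, IDH2, MTHFD1 and NNT stayed lower on library size alone in both comparisons, as PGD did. After oxamate 2 of the 10 were called higher and 2 lower in parental cells, where 58.7% of all genes were called in either direction. In resistant cells 1 was called higher and 1 lower, where 21.5% of all genes were called. The NRF2 system is known to act through antioxidant response elements, and 9 of its genes were tested, the regulators NFE2L2 and KEAP1 among them. In resistant against parental cells 1 was called higher and 5 lower after vehicle, and 3 higher and 5 lower under oxamate. Over all genes 75.7% and 80.3% were called. On library size alone the counts were 6 higher and 3 lower after vehicle, and 6 higher and 1 lower under oxamate. The median log2 fold change of the 9 was then 0.08 and 0.12, against 0.24 and 0.34 for all genes. After oxamate 1 of the 9 was called higher and 6 lower in parental cells, beside the 58.7% of all genes. In resistant cells 4 were called, all lower, beside 21.5% of all genes called and 12.5% called lower. TXNRD1, a thioredoxin reductase that uses NADPH, fell by 0.36 on the log2 scale in parental cells (adjusted p = 1.6e-08) and by 0.12 in resistant cells (adjusted p = 0.0055). HMOX1 went the other way in parental cells, from a mean of 53.5 CPM after vehicle to 69.6 after oxamate. In resistant cells HMOX1 went from 53.7 to 42.0 CPM.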

How the data were processed

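RNA-seq of 12 MIAPaCa2 libraries, 3 in each of 4 groups taken from the labels, was analysed. According to the submitters' processing notes, the authors mapped reads to hg38 with Bowtie2 2.1.0 and deposited expected counts per gene symbol from RSEM 1.2.15, without normalization. The file holds 317700 values, of which 11.6% are not whole numbers. The study's methods also name STAR and featureCounts, which by default counts whole reads.

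Rounded expected counts were tested with edgeR 4.0.16 under R 4.3.3: filterByExpr defaults (14582 genes left), TMM, and quasi-likelihood tests on the means of the 4 groups in 1 fit of all libraries, with Benjamini-Hochberg adjustment over all genes tested and calls under 0.05. The study's own criterion, a fold over 1.5 with an unadjusted p under 0.05, was applied beside it. Library totals of 46698729 to 114222169 set the precision, and intervals cover 95%. Ratios, levels per kilobase and correlations are descriptions. The tests were tried on simulated data first.

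The 7 enzymes were named as a list, together with genes around the pathway, NADPH-making enzymes and genes of the NRF2 system. The 3 genes most like each enzyme over the 12 libraries were added. Members and lists were chosen with earlier results of these data known. Of the genes around the pathway, those named were chosen after their values were seen.

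Alternatives were library size alone, RLE size factors or upper-quartile scaling in place of TMM, no filter, a mean count of at least 25, DESeq2 1.42.0, limma-voom from limma 3.58.1, a block for the replicate number, only the 6 libraries compared, and each library left out. Lengths and positions are from GENCODE 29 and promoters from RefSeq on GRCh38.p14, with all 7 symbols matched. Duplicated libraries were looked for and none was found. Chromatin accessibility and metabolite measurements were not used here.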

Additional observations from a re-analysis of the deposited data

Results flagged for a closer look

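The response to oxamate differed between the cell lines for 3 of the 7 enzymes, by a test of the difference itself in edgeR over all 12 libraries with Benjamini-Hochberg adjustment. PGLS, the lactonase of the oxidative branch, had a difference of -0.28 on the log2 scale (adjusted p = 0.00055), with leave-one-out values from -0.31 to -0.24. TKT, the transketolase, had a difference of -0.23 (adjusted p = 0.00032), with leave-one-out values from -0.26 to -0.21, and under TMM its changes were called in opposite directions in the lines. RPE, the epimerase, had a difference of -0.18 (adjusted p = 0.0018), which was not called on library size alone. No further difference between the lines' responses was called among the 7 enzymes under TMM. Nuclear-retained RNA also differed between the groups compared, and its part in these differences was not tested.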

How the results depend on the processing

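Of the refits of single enzymes under all alternatives, 534 kept their side of the threshold, and called ones also their direction, 15 lost a call, 8 gained one, and 3 called under TMM turned direction. Those 3 turned on library size alone: PGLS at 0.093 and TKT at 0.031 between the lines after vehicle, and TALDO1 at 0.080 between the lines under oxamate, where the median of all genes had moved by 0.22 and 0.32. Values that were not called also changed sign: H6PD between the lines under oxamate went from -0.07 to 0.018 on upper-quartile factors and 0.26 on library size alone, where it was called, PGD and RPIA in the difference between responses went to 0.058 and 0.027 on library size alone, and H6PD for oxamate in resistant cells moved about 0. At the study's criterion (fold over 1.5, unadjusted p under 0.05, in edgeR) 0 of 7 enzymes were called for oxamate in parental cells, for oxamate in resistant cells, between the lines after vehicle and for the difference between responses, and 2 between the lines under oxamate. Over all genes that threshold called 1440, 365, 3407, 5007 and 1237, in the order parental oxamate, resistant oxamate, lines after vehicle, lines under oxamate and difference, against 8563, 3139, 11038, 11708 and 6438 at an adjusted p under 0.05.

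With each library left out in turn, the number of enzymes called ranged from 5 to 6, 2 to 3, 6 to 6, 6 to 7 and 3 to 4 in the same order. Over all genes it ranged from 7706 to 8130, 1795 to 3391, 10533 to 10833, 11319 to 11728 and 5848 to 6643. The count for oxamate in resistant cells dropped by over 1.5 times without the first (1850) or second (1795) vehicle-treated or the third oxamate-treated resistant library (1886). Library size alone changed the split of calls over all genes to 2853 higher and 5922 lower, 1753 and 1179, 8540 and 2769, 9133 and 2819, and 5050 and 1756, from 4124 and 4439, 1314 and 1825, 5602 and 5436, 5923 and 5785, and 3313 and 3125. Upper-quartile factors gave 1679 higher and 1269 lower for oxamate in resistant cells. The cause of these changes was not tested beyond the shift of the median.

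Same-numbered replicates correlated in their deviations from the group means at -0.07 to 0.25, with 3 of 18 pairs above 0.1. Pairs with different numbers were not compared, so whether the numbers mark a shared culture or batch cannot be told. With the replicate number as a block, 6, 3, 6, 6 and 3 enzymes were called in the same order. Over all genes the block gave 8813, 3750, 11160, 11805 and 6798 calls, more than the 8563, 3139, 11038, 11708 and 6438 without it. DESeq2 and limma-voom called 6, 3, 6, 6 and 3 enzymes too.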
